A study of Mus musculus with 6 samples.

Results

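NF-kappaB subunits and their inhibitors were followed in T cells sorted after a culture with donor antigen. The set was fixed by name: 5 genes for Rel family subunits (Rel, Rela, Relb, Nfkb1, Nfkb2) and 5 for their brakes (Nfkbia, Nfkbib, Nfkbid, Nfkbie, Tnfaip3). These genes were chosen with earlier results of these data known. Each gene was represented by the probe with the highest mean non-normalized signal over the 6 arrays. No probe is listed for Nfkb1 in the platform annotation used here, so it was not analysed here. The other 9 genes, 4 subunits and 5 inhibitors, all had a detected probe, out of 8347 named genes and 10687 genes or unnamed probes tested in all.

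All recipients were male C57BL/6 mice, and all cells came from spleen and lymph nodes. Rejecting mice carried full-thickness tail skin from BDF1 donors (C57BL/6 x DBA/2) for 7 days without treatment, tolerant mice carried such skin for 100 days after donor specific transfusion with the anti-CD40L antibody MR-1, and naive mice had no graft. T cells of all 3 statuses were cocultured for 20 to 21 h with T cell-depleted donor splenocytes and sorted into CD69+ and CD69- CD3+ cells, CD69 being a surface protein that appears soon after antigen receptor triggering. The naive cells had therefore also met donor antigen, and tolerant and rejecting mice differ in day and antibody as well as in outcome, which cannot be told apart. There were 6 arrays (Illumina MouseWG-6), 1 for every fraction of every status, without repeats, and the labels do not say how many mice went into one. The sort gate is written in the labels with the same CD69 sign for both fractions, and the sample titles were followed.

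NF-kappaB is a dimer of Rel family proteins that in resting cells is held in the cytoplasm by IkB proteins. Antigen receptor and CD28 signals activate the IkB kinase, IkB is degraded, and the freed dimer enters the nucleus. Among its targets are genes for its own subunits and inhibitors, so that the pathway feeds back on itself. In T cells c-Rel is best known for its part in Il2 transcription.

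The bases before the annotated starts of several members are shown because this feedback acts through kappaB motifs. Promoter windows of 250 bases before each start, from RefSeq (GRCm38.p6), were found for 8 of the 10 genes and read on both strands for the kappaB consensus motif, and capitals mark each match, overlapping matches running together. Of these 8 genes, 6 held a match in at least 1 window (Rel, Nfkb2, Nfkbia, Nfkbie, Nfkbid and Tnfaip3), and Rela and Nfkbib held none. Among all 27025 genes with a window 4.46% held one, and among all 32851 windows 3.90%. The Rel window lies at chr11:23770970-23771219 on the minus strand, the first Nfkb2 window at chr19:46304487-46304736 on the plus strand, the Nfkbia window at chr12:55492648-55492897 on the minus strand, and the Rela window, shown as one without a match, at chr19:5637291-5637540 on the plus strand.
Rel: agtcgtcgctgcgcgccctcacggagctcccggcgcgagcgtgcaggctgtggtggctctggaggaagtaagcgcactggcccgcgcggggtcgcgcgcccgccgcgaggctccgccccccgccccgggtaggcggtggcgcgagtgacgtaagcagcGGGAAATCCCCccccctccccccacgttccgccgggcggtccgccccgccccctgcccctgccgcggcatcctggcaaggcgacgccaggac
Nfkb2: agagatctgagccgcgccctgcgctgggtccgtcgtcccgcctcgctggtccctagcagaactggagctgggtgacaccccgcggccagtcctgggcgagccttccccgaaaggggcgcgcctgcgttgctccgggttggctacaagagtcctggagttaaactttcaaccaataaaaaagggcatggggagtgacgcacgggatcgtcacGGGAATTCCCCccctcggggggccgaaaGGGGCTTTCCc
Nfkbia: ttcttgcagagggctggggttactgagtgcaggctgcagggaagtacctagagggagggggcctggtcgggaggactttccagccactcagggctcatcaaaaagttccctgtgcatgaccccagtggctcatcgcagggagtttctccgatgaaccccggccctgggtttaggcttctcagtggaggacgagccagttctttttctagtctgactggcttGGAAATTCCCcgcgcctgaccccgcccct
Rela: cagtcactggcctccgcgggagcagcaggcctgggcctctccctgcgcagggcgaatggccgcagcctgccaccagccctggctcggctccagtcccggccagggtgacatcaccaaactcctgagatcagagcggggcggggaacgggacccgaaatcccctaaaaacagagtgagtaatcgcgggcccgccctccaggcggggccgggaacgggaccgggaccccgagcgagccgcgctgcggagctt

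The matches of Nfkbid lay in the second of its 3 windows, which follows an earlier start. They are shown with 10 bases on either side, at chr7:30422170-30422199 and chr7:30422215-30422244 on the plus strand.
Nfkbid, first match: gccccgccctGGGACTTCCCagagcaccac
Nfkbid, second match: gggccgaacaGGAATTCCCCgtgcgcgggg
A match is a run of letters and not a measured binding site. Binding was not measured in these samples.

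Most T cell markers were detected, and most defining markers of the other cell types checked were not. From 12669 to 13469 probes were detected per array at a detection p under 0.01. Of 13 T cell markers 10 were detected, with Cd8a below detection, and their summed signal in the authors' value table ran from 168366 to 202606 in CD69+ and from 223956 to 264146 in CD69- cells. Of 10 B cell markers only Cd79b was detected (563 to 1107 in CD69+, 786 to 1130 in CD69-), with Ms4a1, Cd22 and Pax5 below detection. Of 13 myeloid and dendritic markers only Fcgr3 was (141 to 151 against 230 to 281), with Itgax, Itgam and Csf1r below detection. Fcgr3 was detected on the tolerant CD69- array alone, at log2 7.12 where the lowest detected level was 6.67. Of 6 plasma cell markers Mzb1 and Xbp1 were detected (summed 12419 to 14522 against 5513 to 7614), and of 6 natural killer markers 3 were (825 to 1085 against 753 to 814). Summed signals of 4 class II genes ran from 7572 to 12095 in CD69+ and from 8490 to 22125 in CD69- cells, the highest in the rejecting CD69- array. That sum follows H2-DMa, which differed by -1.23, whereas Cd74 was higher in CD69+ cells by 2.37 (adjusted p = 0.00364), H2-Eb1 by 1.59 (adjusted p = 0.0392), and H2-Ab1 differed by 0.78 (adjusted p = 0.0642). The tolerant CD69+ array stood apart in some of these genes. Mzb1 was at 11.44 there, against 8.11 and 7.54 in rejecting and naive CD69+ cells. Cd79b was at 9.92 against 8.72 in each of the others, and H2-Eb1 at 9.42 against 8.31 and 8.07. H2-Ab1 and Cd74 were also highest there. Xbp1, the other plasma cell marker detected, was instead lowest there, at 13.48 against 13.74 and 13.54. H2-DMa was at 12.00 there, against 12.97 and 11.96. Cd79b was at 9.33, 9.95 and 9.71 in rejecting, tolerant and naive CD69- cells, so its level was not particular to that array. Summed signals of 3 hemoglobin genes ran from 1683 to 5822 in CD69+ and from 3122 to 37819 in CD69- cells, lowest in the tolerant array of each fraction. The T, plasma, myeloid and natural killer sums did not overlap between CD69+ and CD69- arrays, and the part of these markers in the results below was not tested. The myeloid sum is Fcgr3 alone, which was below detection on the CD69+ arrays. In bulk RNA fewer expressing cells and less RNA per cell cannot be told apart.

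The first comparison asks how the pathway's genes differed between CD69+ and CD69- cells over the 3 statuses. Of 9 measured members, 6 rose and 1 fell in CD69+ cells (limma, statuses blocked, adjusted p under 0.05). The 6 include Rel, detected on no CD69- array, and Nfkb2, detected on 1. Across all 10687 features 29.6% rose and 33.1% fell (62.7% in all), so the share of 7 in 9 that changed in either direction is close to the background. By direction, 6 in 9 rose against 29.6% of features and 1 in 9 fell against 33.1%. The set was not tested as a group. The median difference over the 9 was 0.77 on the log2 scale, against -0.05 over all features. Levels below are log2 intensities after background correction and normalization, and a difference of 1 is a doubling.

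Nfkbid, which encodes the nuclear inhibitor IkBNS, a partner of NF-kappaB on promoters that takes part in Il2 expression and Foxp3 induction, had the largest rise of the set. Its level was 13.57 in rejecting, 13.30 in tolerant and 13.63 in naive CD69+ cells, against 10.77, 10.42 and 11.01 in the matching CD69- cells. The groups did not overlap, and the lowest CD69+ array stood far above the highest CD69- array. The rise was 6.79-fold (log2 2.76, SE 0.11, adjusted p = 0.000691, n = 3 pairs). A rise at least this large that passed the test was seen for 183 features, 1.71% of the table. By pair it was 2.80 in rejecting, 2.87 in tolerant and 2.62 in naive cells, so the 3 statuses lay close together.

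Among the subunits, Rel encodes c-Rel, the subunit most closely tied to T cell activation. Rel stood at 7.77, 7.61 and 8.17 in rejecting, tolerant and naive CD69+ cells, against 6.09, 5.54 and 5.98 in CD69- cells. It was detected on all 3 CD69+ arrays and on none of the CD69- arrays, so the fold is given as a bound on the background-corrected scale, computed with the lowest level that counted as detected on each CD69- array. On that scale Rel was at least 2.25-fold higher in CD69+ cells on average (log2 difference as measured 1.98, SE 0.14, adjusted p = 0.00100), and at least 1.94-fold in the rejecting, 1.92-fold in the tolerant and 3.05-fold in the naive pair. The bound holds for that scale alone: the log2 difference was 0.93 in the authors' value table and 0.88 without background correction, both past the threshold and both smaller than the bound. Rel passed the detection filter through its CD69+ arrays alone, so its SE and p-value rest on CD69- levels below detection.

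Nfkb2 encodes p100, the precursor of p52, which holds RelB in the cytoplasm until the alternative pathway has it processed. Its level was 8.67, 8.33 and 8.62 in rejecting, tolerant and naive CD69+ cells, against 7.04, 6.17 and 6.52 in CD69- cells. No CD69- array reached a CD69+ array, and of the CD69- arrays only the rejecting one detected the gene. The log2 difference as measured was 1.96 (SE 0.15, adjusted p = 0.00107). By pair Nfkb2 was 3.08-fold higher in rejecting, at least 3.16-fold higher in tolerant and at least 4.18-fold higher in naive CD69+ cells on the background-corrected scale. Without background correction the log2 difference was 1.06, also past the threshold.

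Relb, the partner of p52, rose less and unevenly. Relb was at 10.90, 11.23 and 10.97 in rejecting, tolerant and naive CD69+ cells, against 10.23, 9.65 and 10.36 in CD69- cells. The groups did not overlap, but the gap was widest in the tolerant pair, whose CD69- array was the lowest. The rise averaged 0.95 (SE 0.23, adjusted p = 0.0176), with 0.68, 1.58 and 0.61 in the 3 pairs. Without the tolerant pair it was 0.64, with adjusted p = 0.00728.

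Rela, which encodes the p65 subunit of the most common dimer, went the other way. Rela stood at 12.84, 13.00 and 12.82 in CD69+ cells of rejecting, tolerant and naive mice, against 13.34, 13.25 and 13.38 in CD69- cells, so every CD69+ array lay below every CD69- array. Rela fell by 0.44 (SE 0.12, adjusted p = 0.0280). The call was lost when array medians were centred in place of quantiles (-0.19, adjusted p = 0.314) and when the rejecting pair (-0.41, adjusted p = 0.170) or the naive pair (-0.38, adjusted p = 0.135) was left out. On that median scale the middle of all features shifted to 0.09.

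**Figure D1:**
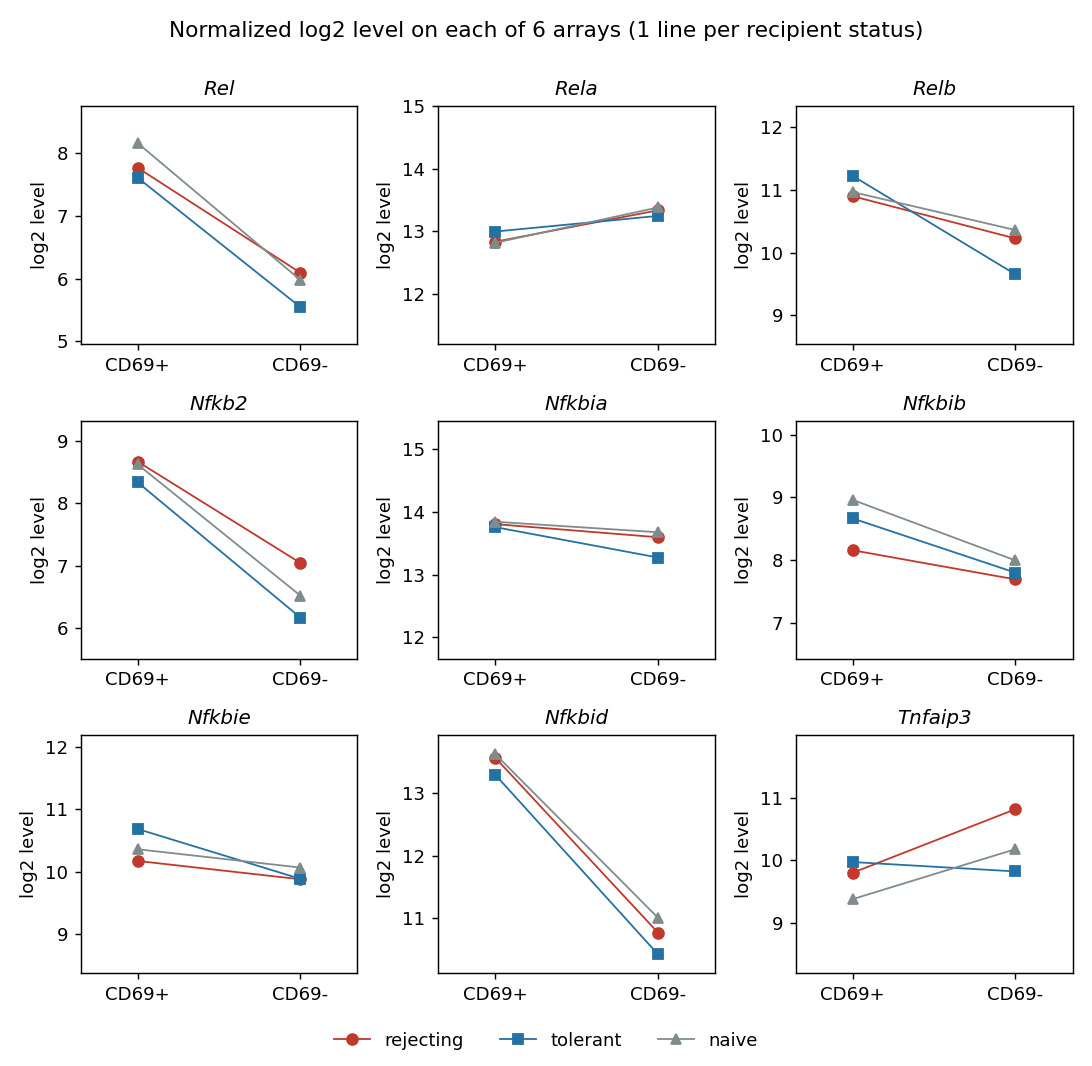
Normalized log2 level (y axis, the same span of 3.8 log2 units in each panel) of the 9 measured genes on each array, CD69+ at the left and CD69- at the right, with 1 line per recipient status. Nfkbid, Rel and Nfkb2 lie higher on all CD69+ arrays, Rela lies lower on all of them, and the Tnfaip3 lines cross.

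The classical cytoplasmic inhibitors changed less than Nfkbid. Nfkbib (IkB beta) stood at 8.16, 8.66 and 8.96 in rejecting, tolerant and naive CD69+ cells, against 7.69, 7.80 and 7.99 in CD69- cells. The rise of 0.77 (SE 0.14, adjusted p = 0.00824) came without overlap and was smallest in the rejecting pair, at 0.47. Nfkbie (IkB epsilon) was at 10.17, 10.68 and 10.36 in CD69+ cells, against 9.88, 9.89 and 10.07 in CD69- cells. Its rise of 0.46 (SE 0.15, adjusted p = 0.0461) passed narrowly. It was 0.80 in the tolerant pair and 0.29 in each of the others. The Nfkbie call was lost without a detection filter (adjusted p = 0.0735) and without any 1 of the pairs (adjusted p = 0.0779 to 0.108). A second, dimmer Nfkbie probe, detected on all 6 arrays, differed by 0.78 (SE 0.12, adjusted p = 0.00379 when every detected probe was fitted on its own).

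Nfkbia encodes IkB alpha, the inhibitor that is degraded and resynthesised within minutes to hours of a signal. Its level was 13.81, 13.76 and 13.84 in rejecting, tolerant and naive CD69+ cells, against 13.60, 13.27 and 13.68 in CD69- cells. All CD69+ arrays lay above all CD69- arrays, yet the difference of 0.29 (SE 0.12, 95% interval -0.03 to 0.60) did not pass (adjusted p = 0.0941). It passed under 4 alternatives, the largest being 0.53 with array medians centred. A dimmer second probe, detected on 4 arrays, differed by 0.35 (SE 0.16).

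Tnfaip3 encodes A20, an enzyme that edits ubiquitin chains and dampens the signal above the IkB kinase. It stood at 9.80, 9.97 and 9.38 in rejecting, tolerant and naive CD69+ cells, against 10.82, 9.82 and 10.18 in CD69- cells. The groups overlapped. The mean difference was -0.56 (SE 0.25, 95% interval -1.21 to 0.10, adjusted p = 0.112), made up of -1.02 in the rejecting pair, 0.15 in the tolerant pair and -0.80 in the naive pair. Without the tolerant pair the difference was -0.91 and passed (adjusted p = 0.00314).

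In all, 7 of the 9 members lay above without overlap, where 33.0% of all features did, and 1 lay below, where 35.5% did. Among the 7 are Rel, detected on no CD69- array, and Nfkb2, detected on 1. Counting single pairs, 1 array against 1, at a 1.5-fold difference and a signal of 500 in the brighter array, 3 members were higher and 1 lower in rejecting CD69+ cells, where 18.4% of features were higher and 18.4% lower. In the tolerant pair 5 were higher and 0 lower (16.6% and 17.1% of features), and in the naive pair 4 were higher and 1 lower (19.6% and 21.0%). Relb, Nfkb2 and Nfkbid were among the higher members of all 3 pairs, and the lower one was Tnfaip3 each time.

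In the tolerant pair the difference between CD69+ and CD69- cells was the most positive of the 3 pairs for 7 of 9 members, a pattern counted after the values were seen, where 39.2% of all features had it. The 7 include Nfkb2, at 2.16 in the tolerant and 2.10 in the naive pair. The CD69- arrays of both pairs did not detect Nfkb2, so that order is not firm. The sort marker gene moved with this pattern. Cd69 stood at 13.89, 13.31 and 13.76 in rejecting, tolerant and naive CD69+ cells, against 12.65, 11.21 and 12.53 in CD69- cells. The Cd69 gap was thus 2.10 in the tolerant pair, against 1.25 and 1.24 in the rejecting and naive pairs. Its part in the members' differences was not tested.

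**Figure D2:**
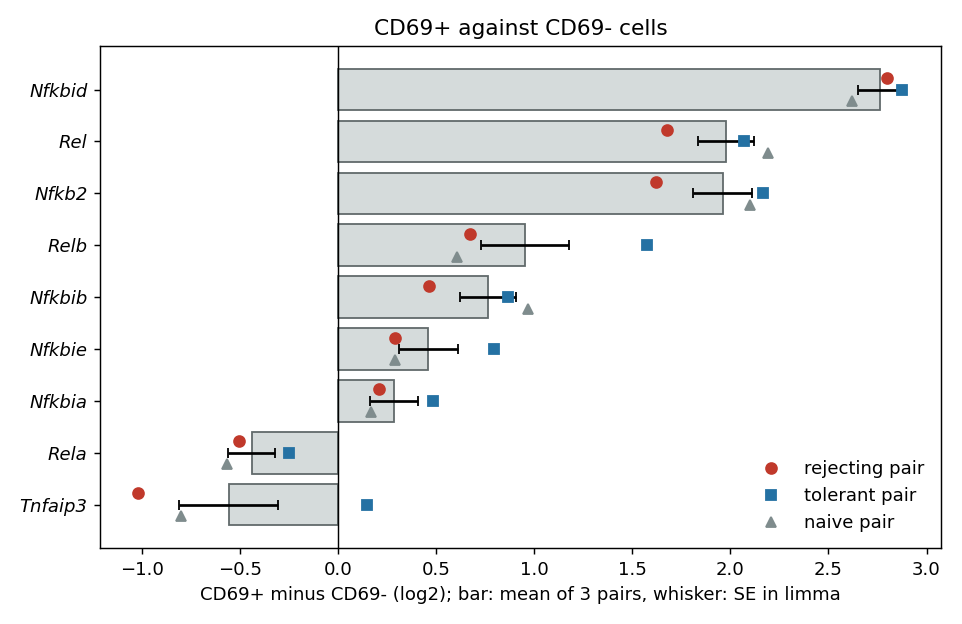
CD69+ minus CD69- difference (x axis, log2) of each measured gene, with bars for the mean of 3 pairs, whiskers for the standard error in limma and points for the single pairs. Nfkbid leads at 2.76, the tolerant pair lies to the right of the others for Relb and Nfkbie, and Tnfaip3 has points on both sides of 0.

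The counts of the pathway lists that follow stand against 29.6% of all features higher, 33.1% lower and a median of -0.05, and no list was tested as a group. The lists were chosen with earlier results of these data known, so their counts describe these arrays and are not independent evidence. Of 15 measured genes for the IkB kinase complex, its upstream kinases and the antigen receptor adaptors, 11 fell and 2 rose, with a median of -0.58. Tab1, an adaptor of the kinase TAK1, fell by 1.22, Prkcq, which encodes the protein kinase C theta that links the T cell receptor to this pathway, fell by 1.19, and Map3k14, the NIK kinase of the alternative pathway, fell by 1.11. Ikbke, a kinase related to the IkB kinases, fell by 0.87. The risers were Map3k8, the kinase TPL2 that p105 holds in check, at 1.60 (SE 0.20, adjusted p = 0.00276), and Map3k7, the TAK1 gene, named after its value was seen, which was detected on 2 CD69+ arrays and on no CD69- array and is given no size. Of 15 measured TRAF, cIAP and ubiquitin regulators 7 fell and 1 rose, with a median of -0.35. Peli1, a ubiquitin ligase that restrains T cell activation and acts on c-Rel, fell by 1.74 (SE 0.13, adjusted p = 0.00106). Traf5 fell by 1.27, Rnf31, the catalytic part of the linear ubiquitin ligase, by 0.97, the deubiquitinase gene Cyld by 0.86 and Birc2 by 0.85. The 1 riser, Traf1 (0.35, adjusted p = 0.0387), had overlapping groups and was singled out after its value was seen.

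Of 12 other IkB proteins and partners of A20, 4 rose and 3 fell, with a median of 0.04, close to the shares of 29.6% and 33.1% over all features. Nkrf, which encodes a repressor of NF-kappaB targets, rose by 1.52 and Tnip2, an A20 binding protein, by 1.03. The ubiquitin ligase gene Itch fell by 1.34, Nfkbiz by 1.14 and Tax1bp1 by 1.03. Nfkbiz encodes a nuclear IkB protein like IkBNS, and the pair thus differed in opposite directions between the fractions. Nfkbiz had adjusted p = 0.00269 (SE 0.14). Of 26 measured genes known as NF-kappaB targets in T cells, 20 rose and 2 fell (29.6% and 33.1% of all features did), with a median of 2.48, or 2.44 with genes undetected in CD69- cells at their lower bound. The target list, too, was chosen with earlier results of these data known, so its share is not independent of them. Il2, Ccl3, Ccl4, Irf4 and Ifng rose most. Il2, Ccl3 and Csf2, which also rose, were detected on no CD69- array and passed the detection filter through their CD69+ arrays alone. Their p-values thus rest on CD69- levels below detection. On the background-corrected scale Il2 was at least 84.2-fold and Ccl3 at least 53.2-fold higher in CD69+ cells. Bcl2l1, the gene of the survival protein Bcl-xL, singled out after its value was seen, was at 10.96, 10.69 and 11.34 in rejecting, tolerant and naive CD69+ cells, against 6.15, 6.31 and 6.85 in CD69- cells, where 1 array detected it. The log2 difference as measured was 4.56 (SE 0.13, adjusted p = 0.000490), and its size rests in part on the rejecting and tolerant CD69- levels, which were below detection. The 2 targets that fell were Irf1 (-1.19) and Junb (-0.33). Many of these genes also answer to NFAT and AP-1, and which factor acted was not measured.

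**Figure D3:**
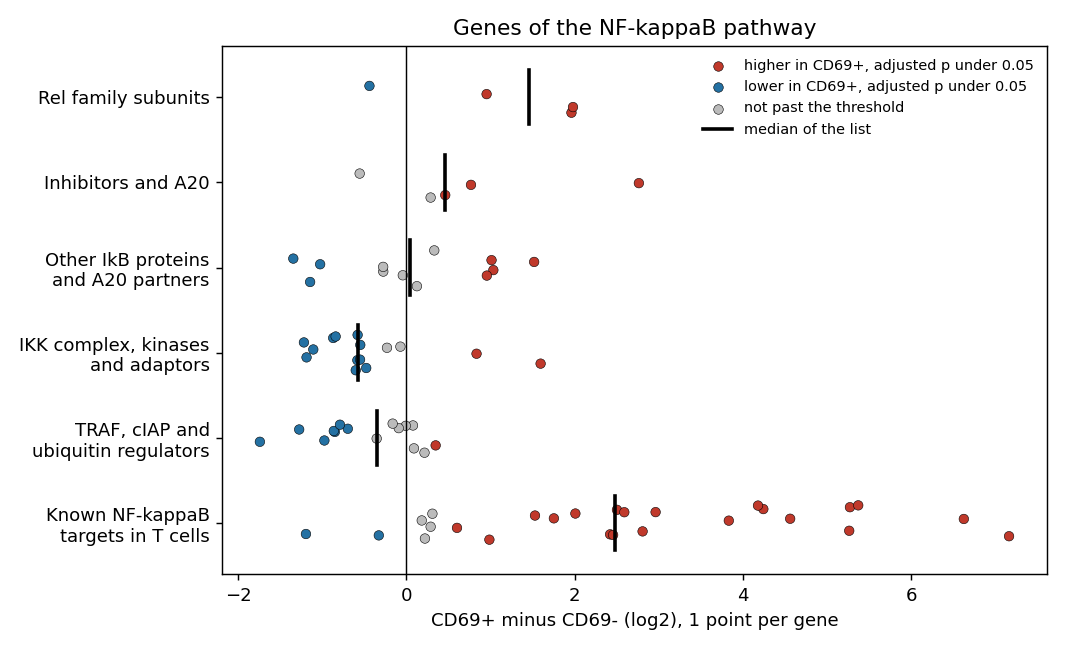
CD69+ minus CD69- difference (x axis, log2) of each measured gene in 6 lists of the pathway, with colour for genes past an adjusted p of 0.05 and a black bar for each list's median. Known targets lie mostly to the right (median 2.48) and the kinase and adaptor list mostly to the left (median -0.58). Vertical scatter within a list only separates the points. The lists were chosen with earlier results of these data known.

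The genes with level profiles most like those of the extreme members were sought among 8338 other named genes by the root mean square distance over the 6 arrays after centring each gene. Closest to Nfkbid were Pip4p1 (distance 0.06 log2 units), Il12rb1 (0.11), Lta (0.11), Kif15 (0.13) and Apex1 (0.13). Lta, the lymphotoxin alpha gene, rose by 2.81, and Il12rb1 encodes a subunit of the IL-12 receptor. Closest to Tnfaip3 were Gngt2 (0.08), Abi3 (0.12), Amt (0.13), Apobec3 (0.14) and Gpr137b (0.15). With 6 arrays such likeness is a description of these arrays.

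The second comparison asks whether recipient status shifted the members in both fractions alike. No member passed over all features in any of the 3 contrasts in limma with fraction as a block, and the table as a whole gave few calls: 0.00936% of features for tolerant against naive mice, 0.00% for rejecting against naive mice and 0.0187% for rejecting against tolerant mice. At an unadjusted p under 0.05, 2 members differed in the tolerant against naive contrast (12.1% of features), 1 in the rejecting against naive contrast (4.74%) and 1 in the rejecting against tolerant contrast (14.3%). The contrasts share arrays, so their values are given side by side and not as separate evidence.

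Rel and Nfkbid were the members with an unadjusted p under 0.05 between tolerant and naive mice. Rel differed by -0.49 (SE 0.18, 95% interval -0.95 to -0.04, adjusted p = 0.404), Nfkbid by -0.46 (SE 0.14, 95% interval -0.82 to -0.09, adjusted p = 0.404). For each of them the tolerant array was the lowest of its fraction. Rel was below detection on the CD69- arrays that enter this average. Nfkbib differed by -0.55 between rejecting and naive mice (SE 0.17, adjusted p = 0.969), and by -0.31 between rejecting and tolerant mice. Nfkb2 differed by 0.60 between rejecting and tolerant mice (SE 0.18, adjusted p = 0.297) and by 0.28 between rejecting and naive mice. The tolerant and naive CD69- arrays in these averages did not detect Nfkb2, so the sizes are as measured and not firm. In both fractions the rejecting array had the highest Nfkb2 level. In CD69+ cells, though, it was 8.67 against 8.62 in naive cells. The 95% intervals were wide, as for Tnfaip3 between rejecting and naive mice (0.53, interval -0.27 to 1.33), so a missed threshold does not show that statuses were alike.

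Within a fraction each status is 1 array, so the following are values with no test, counted from 1.5-fold upwards where the brighter array reached a signal of 500. In CD69+ cells Tnfaip3 was 1.51-fold higher in tolerant than in naive cells (8.92% of features were higher by that rule and 6.29% lower), and Nfkbib was 1.75-fold lower in rejecting than in naive cells (1.67% were higher and 0.374% lower). Of the CD69+ arrays the tolerant one also had the highest Mzb1, Cd79b and H2-Eb1, but the lowest Xbp1. Its H2-DMa level was below that of the rejecting one (12.00 against 12.97). Cd79b was at a similar level in tolerant CD69- cells (9.95, against 9.92 in tolerant CD69+ cells). The part of these genes in its differences was not tested. No member differed by that much between rejecting and tolerant CD69+ cells (4.76% were higher and 6.52% lower). In CD69- cells Relb was 1.63-fold lower in tolerant than in naive cells (0.683% were higher and 1.54% lower). Tnfaip3 was 1.56-fold higher in rejecting than in naive CD69- cells (1.22% were higher and 0.711% lower). It was 1.99-fold higher in rejecting than in tolerant CD69- cells (2.70% were higher and 2.26% lower). The tolerant array was the lowest of the 3 CD69- arrays for 7 of 9 members, a count made after the values were seen, where 30.0% of features were lowest there. The 7 include Rel, detected on no CD69- array, and Nfkb2, not detected on the tolerant and naive ones, so their order is not firm. They also include Rela, whose levels lay close together (13.25 in tolerant against 13.34 in rejecting and 13.38 in naive cells). In CD69+ cells the tolerant array was the lowest for 4 of 9 members, against 41.5% of features. As noted for the sort marker, Cd69 was also lowest in the tolerant CD69- array, and so were the hemoglobin genes.

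**Figure D4:**
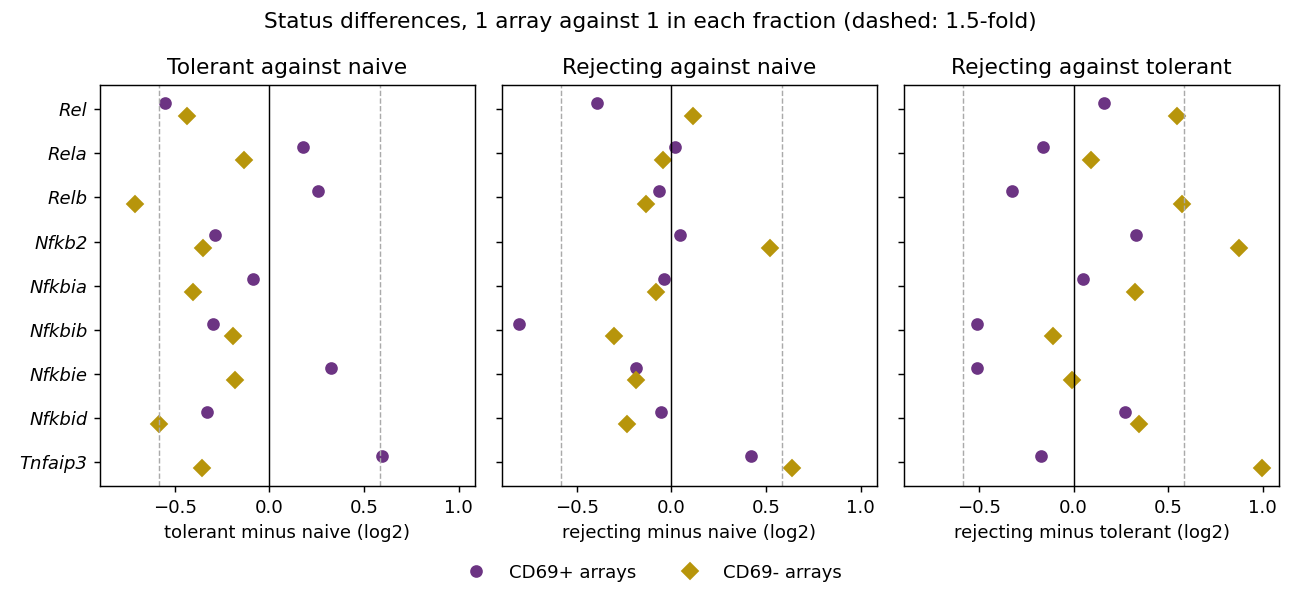
Status differences (x axis, log2) of each measured gene, 1 array against 1, for tolerant against naive, rejecting against naive and rejecting against tolerant, with circles for CD69+ and diamonds for CD69- arrays and dashed lines at 1.5-fold. Most points lie inside the dashed lines, with Tnfaip3, Nfkbib, Relb and Nfkb2 having points beyond them. The Nfkb2 point is not counted because its signal was under 500.

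The study's own rule for candidate tolerance genes asks for at least 1.5-fold more signal in tolerant than naive CD69+ cells, 1.5-fold more in CD69+ than CD69- tolerant cells and a signal of at least 500. Applied to the authors' value table, it was met by 0 of 9 members, against 1.54% of features. Relb, Nfkbib, Nfkbie and Nfkbid each met all but the first criterion, with tolerant over naive ratios of 1.18, 0.855, 1.23 and 0.798. Tnfaip3 came closest to that first criterion at a ratio of 1.42, with 1.09 for CD69+ over CD69- tolerant cells. The rule for candidate rejection genes, which sets rejecting against tolerant CD69+ cells in the same way, was also met by 0 of 9 members, against 1.82% of features. Relb, Nfkb2 and Nfkbid missed it by 1 criterion, with rejecting over tolerant ratios of 0.809, 1.18 and 1.20.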

How the data were processed

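Total RNA, 0.55 µg per sample, was biotin-labelled and hybridized to 1 single-colour Illumina MouseWG-6 array per sample, per the labels' protocols. The deposited non-normalized table gives, per the file headers, an intensity and a detection p-value for each of 45281 probes. GenomeStudio 2009.2 is named per the submitters' processing notes. A second deposited table, called the authors' value table here, holds linear intensities with an equal median of 168.3 on all arrays and the same probe ranks. How it was normalized is not given in the sources, nor are slides and scan dates, which leaves no batch to test.

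Intensities were processed with limma 3.58.1 in R 4.3.3: normexp background correction, its negative controls being deduced from detection p-values, then addition of 16, quantile normalization and log2 transformation. Probes detected (p under 0.01) on any of the 6 arrays stayed in, the brightest probe standing for a gene symbol, which left 10687 features. Of the probes, 34885 had 1 platform symbol, 18 had several and 10378 were unlisted; 34807 were matched to genes in a GRCm38.p6 gene table, used for names.

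The CD69 comparison (lmFit and eBayes) had status as a block (3 pairs), and the status comparisons had fraction as a block (2 arrays against 2). Each fit had 2 residual degrees of freedom and a Benjamini-Hochberg threshold of 0.05 over all features, 2-sided. With no repeats, the p-values rest on how far a difference varied from status to status or from fraction to fraction, and not on repeated arrays. In eBayes each feature's variance was also drawn towards that of all features, with 2.83 prior degrees of freedom in the CD69 fit. The members and lists were chosen with earlier results of these data known. Named beside the members are up to 5 called genes per list with the largest differences, and the 5 profiles nearest to the members with the largest rise and fall. Alternatives were the authors' table, other background, scaling, offset, detection, probe, block and variance settings, and each pair left out.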

Additional observations from a re-analysis of the deposited data

Results flagged for a closer look

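Tnfaip3 and Relb differed between statuses in opposite directions in the fractions, by at least 1.25-fold each way on detected arrays. Each value is 1 array against 1, and the difference between the fractions was not tested. Tnfaip3 was 0.59 higher in tolerant than in naive CD69+ cells on the log2 scale, while in CD69- cells the same difference was -0.36. Relb had a rejecting minus tolerant difference of -0.33 in CD69+ cells and of 0.57 in CD69- cells.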

How the results depend on the processing

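Each member's CD69+ minus CD69- difference kept its direction under all alternatives run for it. Nfkbid (2.65 to 2.98), Nfkbib (0.51 to 0.92) and Relb (0.64 to 1.14) stayed past the threshold in all 12, and Rel (0.88 to 2.13) and Nfkb2 (1.06 to 2.13) in all 11 that kept them. For Rel and Nfkb2 each of those 11 used CD69- levels below detection. With detection required on all 6 arrays both dropped out, and 4 of the 7 members left rose. The count of members that rose was 5 without any 1 pair, and that of members that fell ran from 0 to 2, the 2 being Rela and Tnfaip3 without the tolerant pair; it was 0 with array medians centred. Without the rejecting, tolerant or naive pair 4596, 7183 and 5065 features were called. With array medians centred 3626 of 6246 calls were higher, against 3164 of 6697. Between tolerant and naive mice the called features numbered 0 with detection on all 6 arrays or no block and 6 with an intensity trend, against 1. Between rejecting and tolerant mice they numbered 23 with the authors' table, 22 without background correction, 13 with an offset of 50, 14 with detection on all 6 arrays, 0 without a block, 87 with an intensity trend and 1 without the naive arrays, against 2. No member was among them in any setting. The tolerant minus naive difference of Rela changed sign to -0.10 with array medians centred, against 0.02, and neither passed.

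Single-array counts at 1.5-fold were less firm, and the cause was not tested. Tnfaip3, counted as 1 in tolerant over naive CD69+ cells, gave 0 with the authors' table, no background correction, an offset of 50 or a 2-fold minimum. Nfkbib, lower in rejecting than naive CD69+ cells, gave 0 with the authors' table, no background correction or a 2-fold minimum. Relb, lower in tolerant than naive CD69- cells, gave 0 at 2-fold, and the count was 2 with medians centred. Tnfaip3, higher in rejecting than naive CD69- cells, gave 0 with the authors' table, no background correction, medians centred or 2-fold, and in rejecting over tolerant CD69- cells 0 at 2-fold, where the count was 2 with no signal minimum. With medians centred 2 members were lower in rejecting than tolerant CD69+ cells, against 0. At a 2-fold minimum the rejection rule took 21 features, against 194.

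No paired analysis by replicate number was possible because no combination was repeated; fits with no block are given above. The number of arrays limits all precision, and Rel and Nfkb2 lay near background in CD69- cells, which limits the size of their rise.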
